A study of Mus musculus with 12 samples.

Results

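Krüppel-like factors (Klf proteins) are zinc-finger transcription factors that bind GC-rich and CACCC-type sequences. The 10 family members described here, Klf2, Klf3, Klf4, Klf5, Klf6, Klf7, Klf9, Klf10, Klf11 and Klf13, were taken by gene symbol from the 55401 genes of the deposited count table. Members of the family carry similar DNA-binding domains and differ in their partners. Klf2, Klf4, Klf5, Klf6 and Klf7 are mostly known as activators, Klf3 recruits the CtBP co-repressors, and Klf9, Klf10, Klf11 and Klf13 carry a motif that recruits the Sin3 co-repressor. Several of them are induced within minutes to hours of a stimulus, and Klf2 and Klf4 are known for holding various cell types out of the cell cycle.

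The libraries were RNA-seq of Pax7-ZsGreen+ satellite cells, the resident stem cells of skeletal muscle, sorted from the hind limbs of adult mice aged 3 to 4 months. All mice carried the floxed Cxcr4 alleles (CXCR4 FL/FL) and the Pax7-ZsGreen reporter, and all were given tamoxifen at 80 mg/kg on 5 days. Per the study's methods, the mice then received a tamoxifen diet until the experiment ended. Cxcr4 KO mice also carried Pax7-creERT2, which deletes the floxed receptor gene in cells that express Pax7, and the mice called WT lacked the cre, so the controls did not express the recombinase. Cells were collected freshly sorted (quiescent, 4 libraries per genotype) or after overnight culture (activated, 2 libraries per genotype). The study describes the medium of this culture as a growth medium that held serum and basic fibroblast growth factor. The cells called quiescent had also been through enzyme digestion of the muscle and sorting. The study describes MYOD1 protein, an early step of activation, as already present after this isolation. The part of the isolation in the levels was not tested. The labels number the libraries within each group but do not say whether each came from a separate animal, so the tests measure the spread between libraries.

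The libraries held 12775593 to 23717013 counts in quiescent cells and 3172164 to 5427280 in activated cells, and all 10 members passed the filter on low counts. Levels are given in CPM, counts scaled to the library total and its TMM scaling factor. Cxcr4 transcripts, the check of the genotype labels, were at 59.1 to 112 CPM in the quiescent WT libraries. In the quiescent Cxcr4 KO libraries they were at 12.5 to 21.2 CPM, without overlap. In activated cells they were at 14.4 and 33.3 CPM in WT and 5.39 and 13.7 CPM in Cxcr4 KO. This difference was without overlap but did not pass (log2 -1.35 ± 0.46, SE; adjusted p = 0.381, edgeR). Satellite cell markers (10 genes, among them Pax7 and Myf5) summed to 5385 to 8711 CPM in quiescent and 2354 to 3558 CPM in activated libraries. Quiescent and activated libraries also differed in ways that the culture does not define. Transcripts of the Y chromosome summed to 358 to 659.8 CPM in every quiescent library and 0 to 2.51 CPM in every activated one, and Xist was at 1.2 to 7.17 CPM in the former and 451 to 817 CPM in the latter. A single ribosomal RNA gene took 0.295 to 0.807% of the counts in quiescent and 11.5 to 40.3% in activated libraries. The Y and Xist transcripts point to male mice for the quiescent and female mice for the activated libraries. Culture and the sex of the mice therefore cannot be told apart, for any gene, in any comparison of activated with quiescent cells. In an alternative added after the data were seen, every library was thinned to 1892996 counts outside the ribosomal RNA gene, and 13069 genes were tested. By the rule for a call given below, the members called lower after culture were the same 5 in WT as in the main fit. In Cxcr4 KO they were the same 7 with Klf3 added. Over the alternatives that kept all libraries, thinning among them, 4849 to 7674 of all genes were called in either direction in WT. In Cxcr4 KO 5135 to 8693 were called. In bulk RNA fewer cells of a type cannot be told apart from less RNA per cell.

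The promoters of the members that were lower after culture in both genotypes are shown because these genes moved together. The RefSeq promoter table (build GRCm38.p6) held 8 of the 10 members and had no entry for Klf5 and Klf10. Each window below is the 250 bases before the annotated start, read 5′ to 3′ on the strand of the gene. The windows are chr8:72318812-72319061 on the plus strand for Klf2, chr4:55532476-55532725 on the minus strand for Klf4, chr19:23140976-23141225 on the plus strand for Klf9 and chr12:24651121-24651370 on the plus strand for Klf11. Capitals mark every match, on either strand, to the GC box (GGGCGG, or CCGCCC on the other strand), the CACCC box (CACCC or GGGTG) and the MEF2 box.
Klf2: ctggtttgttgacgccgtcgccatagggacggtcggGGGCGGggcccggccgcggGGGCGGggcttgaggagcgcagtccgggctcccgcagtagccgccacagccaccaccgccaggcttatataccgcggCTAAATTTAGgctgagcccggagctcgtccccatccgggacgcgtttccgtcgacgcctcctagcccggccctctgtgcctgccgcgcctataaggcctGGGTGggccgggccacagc
Klf4: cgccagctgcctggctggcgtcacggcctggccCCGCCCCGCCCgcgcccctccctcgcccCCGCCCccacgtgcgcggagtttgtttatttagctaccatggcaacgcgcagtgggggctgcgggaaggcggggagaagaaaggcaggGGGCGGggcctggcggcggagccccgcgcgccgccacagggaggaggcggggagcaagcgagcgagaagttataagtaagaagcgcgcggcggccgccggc
Klf9: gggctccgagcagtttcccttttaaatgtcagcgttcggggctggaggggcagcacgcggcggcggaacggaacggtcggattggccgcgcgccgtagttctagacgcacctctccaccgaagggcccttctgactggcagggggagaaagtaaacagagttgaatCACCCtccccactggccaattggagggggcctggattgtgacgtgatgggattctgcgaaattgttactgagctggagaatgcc
Klf11: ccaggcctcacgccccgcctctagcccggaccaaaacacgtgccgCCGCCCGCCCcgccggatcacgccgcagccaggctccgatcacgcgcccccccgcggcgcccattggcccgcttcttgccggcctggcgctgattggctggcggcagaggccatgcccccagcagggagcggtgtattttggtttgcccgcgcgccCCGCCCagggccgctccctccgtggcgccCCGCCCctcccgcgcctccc

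GC boxes, the class of site that Klf and Sp factors themselves bind, were present in 7 of the 8 member windows, against 33.0% of the 32536 distinct promoter windows of this length in the table. Klf9 was the member window without one. The G+C content of the member windows ran from 59.2% in Klf7 to 78.4% in Klf3. That of all windows was not measured, so the part of base composition in the GC box counts was not tested. CACCC boxes were in 5 of 8 member windows and in 52.1% of all windows. A pair of GC boxes overlapped each other in Klf4 and in Klf11, and a GC box overlapped a CACCC box in Klf3 and in Klf13. The MEF2 box, the site of Mef2 factors, was found in Klf2 alone among the 8, starting 118 bases before the start, and in 2.89% of all windows. No member window held the CArG box of Srf (1.48% of all windows), the cyclic AMP response element (TGAC followed directly by GTCA, 1.56%), the AP-1 site TGACTCA (4.45%) or the TATA box TATAAA on either strand (12.3%). Matches and their absence describe these letters in these windows only.

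Levels were compared between members per kilobase of exon (CPM divided by the length of the merged exons, 1847 bases for Klf2 to 11243 bases for Klf3). In quiescent WT cells Klf4 transcripts, from a gene best known for growth arrest and for reprogramming, were the most abundant at 419 ± 65.6 CPM per kilobase (SD, n = 4). Klf6, an early response gene of injured tissue, followed at 129.8 ± 21.7, and Klf9, a target of glucocorticoid and thyroid hormones, at 127 ± 17.5 (SD, n = 4 each). These 2 overlapped each other between libraries, and neither overlapped Klf4. Klf2, known from endothelium and resting T cells, stood at 76.5 ± 30.6 CPM per kilobase (SD, n = 4). Below it came Klf10 at 22.3, Klf13 at 19.6, Klf7 at 15.1 and Klf11 at 9.83 CPM per kilobase, with overlap between neighbours among the first 3 of them. Klf5 at 4.62 and Klf3 at 4.49 CPM per kilobase were the least abundant and overlapped each other. The order in quiescent Cxcr4 KO cells differed only between neighbours whose libraries overlapped, Klf6 with Klf9 and Klf5 with Klf3, and Klf4 again stood first at 331 ± 29.7 CPM per kilobase (SD, n = 4).

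The order changed at its top in activated cells. Klf6 stood first at 83.3 ± 49.7 CPM per kilobase in WT and 54.7 ± 24.4 in Cxcr4 KO (SD, n = 2 each). Klf4 was the fourth in WT at 25.9 ± 9.43 and the third in Cxcr4 KO at 25.3 ± 6.29 CPM per kilobase (SD, n = 2 each), and did not stand apart from Klf9, Klf10 and Klf2 in WT or from Klf10 in Cxcr4 KO. The FPKM values that the authors deposited as one value per group were 0.964 to 1.02 times these means, and all 40 were within 1 SD of them. As a share of the summed CPM per kilobase of the 10 members, Klf4 made up 44.3 to 55.0% in the 8 quiescent libraries and 10.7 to 14.1% in the 4 activated ones. Klf10 made up 1.80 to 3.77% and 11.0 to 18.8%, and Klf6 13.0 to 18.9% and 25.0 to 39.0%, again without overlap. Klf3, Klf5, Klf7 and Klf13 also took larger shares in the activated libraries without overlap. The share of Klf2 did overlap between the states, from 5.57 to 14.1% in quiescent and 6.12 to 11.5% in activated libraries. Those of Klf9 and Klf11 overlapped too. The shares of a library sum to a fixed total, so a larger share is not in itself a higher level.

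**Figure D1:**
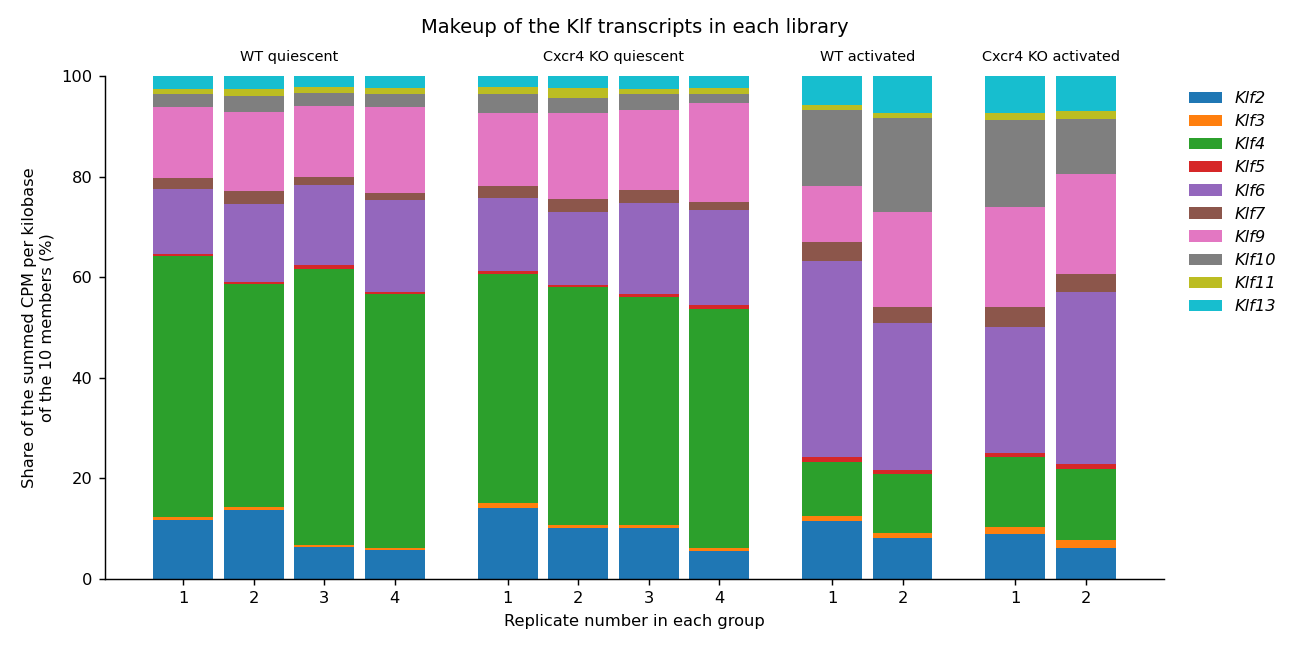
Share of the summed CPM per kilobase of the 10 Klf members taken by each member (vertical axis, %) in each of the 12 libraries (horizontal axis, replicate number within each group; 1 bar per library, 1 colour per member). Klf4 takes 44.3 to 55.0% in the quiescent libraries and 10.7 to 14.1% in the activated ones. Klf3, Klf5, Klf6, Klf7, Klf10 and Klf13 take larger shares in the activated libraries. The shares of a library sum to a fixed total, so a larger share is not in itself a higher level.

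The first comparison asked which members differed between freshly sorted and cultured cells. In WT, 5 of the 10 members were called lower after culture (Klf2, Klf4, Klf5, Klf9 and Klf11) and none was called higher, where a call needed an adjusted p under 0.05 in edgeR's quasi-likelihood test, a change over 2-fold and a mean normalised count over 10. Of all 25771 genes tested, 15.7% were called lower by the same rule and 9.59% higher. Among the 6880 genes at least as abundant as the least abundant member, 25.7% were called lower. In Cxcr4 KO cells 7 of 10 members were called lower, the same 5 with Klf6 and Klf7, and none higher, against 17.4% of all genes tested called lower and 11% called higher, and 27% called lower of the equally abundant genes. The median log2 change of the members was -0.98 in WT and -1.26 in Cxcr4 KO. The median over all genes tested was -0.92 and -0.96, and over the equally abundant genes -0.14 and -0.12.

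The activators Klf2, Klf4 and Klf5 were lower after culture in both genotypes. Klf4 was at 1445, 988, 1319.9 and 1357 CPM in the quiescent WT libraries and at 99.3 and 58.7 CPM in the activated ones. The Cxcr4 KO levels were 1089.8, 879, 1033 and 1032 CPM in quiescent and 63.4 and 90.6 CPM in activated libraries. Every activated library was far below every quiescent one. The fall was 16.1-fold in WT (log2 -4.01 ± 0.34, SE; adjusted p = 7.53e-08, edgeR) and 13.1-fold in Cxcr4 KO (log2 -3.71 ± 0.33, SE; adjusted p = 1.18e-07, edgeR), the largest of the 10 members in both.

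Klf2, which lies downstream of Erk5 and Mef2 in endothelium, was at 196, 184, 92.8 and 92.5 CPM in quiescent WT libraries and at 64.7 and 25.0 CPM in activated ones. The 4 quiescent Cxcr4 KO libraries were at 204, 113, 139 and 73.1 CPM, and the activated ones at 24.9 and 23.7 CPM. The states did not overlap in either genotype, though the first activated WT library stood well above the other 3 activated libraries. The decrease was 3.10-fold in WT (log2 -1.63 ± 0.44, SE; adjusted p = 0.0081, edgeR) and 5.44-fold in Cxcr4 KO (log2 -2.44 ± 0.46, SE; adjusted p = 0.000413, edgeR). Without activated WT replicate 2 the WT change was -1.07 with an adjusted p of 0.157 (edgeR).

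Klf5, which drives growth in epithelia and smooth muscle, was scarce. It was at 17.3 to 29.1 CPM in the 4 quiescent WT libraries and at 14.4 and 7.44 CPM in the activated ones, the lowest resting on 17 counts. In Cxcr4 KO it was at 13.6 to 28.5 CPM and then at 6.42 and 10.7 CPM. The states did not overlap, with log2 changes of -1.09 ± 0.38 in WT (SE; adjusted p = 0.034, edgeR) and -1.27 ± 0.38 in Cxcr4 KO (SE; adjusted p = 0.0148, edgeR). The WT call was lost when any of quiescent WT replicates 1, 3 or 4 or activated WT replicate 2 was left out (log2 -1.07, -0.98, -1.06 and -0.68), and the Cxcr4 KO call without activated replicate 1 (log2 -0.96).

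Klf6 and Klf7, the latter known from neurons and sensory axons, passed in Cxcr4 KO cells and not in WT cells. Klf6 was at 519, 499.5, 552 and 709 CPM in quiescent WT libraries and at 519.8 and 211 CPM in activated ones. In Cxcr4 KO it was at 499, 389.6, 598 and 590.1 CPM and then at 164 and 316 CPM. The first activated WT library thus lay within the quiescent range, while both activated Cxcr4 KO libraries lay below it. The log2 change was -0.64 ± 0.34 in WT (SE; adjusted p = 0.159, edgeR) and -1.11 ± 0.35 in Cxcr4 KO (SE; adjusted p = 0.0193, edgeR). Klf7 was at 93.9 to 155 CPM in quiescent WT and at 95.9 and 42.9 CPM in activated WT libraries, with a log2 change of -0.81 ± 0.33 (SE; adjusted p = 0.0696, edgeR). In Cxcr4 KO it went from 93.9 to 154 CPM in quiescent to 49.1 and 61.4 CPM in activated libraries, a log2 change of -1.25 ± 0.34 (SE; adjusted p = 0.00749, edgeR). The difference between the genotypes' changes did not pass a test for either gene (interaction log2 -0.48, unadjusted p = 0.325 for Klf6, and -0.44, unadjusted p = 0.338 for Klf7, edgeR), so neither change was shown to be particular to Cxcr4 KO. Without activated WT replicate 1 both passed in WT (log2 -1.35 for Klf6 and -1.44 for Klf7), and without activated Cxcr4 KO replicate 1 neither passed in Cxcr4 KO (log2 -0.72 and -1.10).

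The Sin3-recruiting members divided. Klf9 was at 620.3, 559, 536 and 724 CPM in quiescent WT and at 162 and 148 CPM in activated WT libraries. Among Cxcr4 KO libraries it was at 549, 504, 574 and 674 CPM and then at 143 and 202 CPM. All activated libraries were below all quiescent ones, by 3.93-fold in WT (log2 -1.98 ± 0.27, SE; adjusted p = 1.69e-05, edgeR) and 3.34-fold in Cxcr4 KO (log2 -1.74 ± 0.27, SE; adjusted p = 5.05e-05, edgeR). Klf11, a close relative of Klf10, was at 39.6, 45.8, 40.6 and 44.6 CPM in quiescent WT and at 12.9 and 7.44 CPM in activated WT libraries. Cxcr4 KO cells held it at 43.8, 49.7, 35.8 and 38.0 CPM and then at 9.76 and 14.6 CPM. The states again did not overlap, and the decrease was 4.05-fold in WT (log2 -2.02 ± 0.31, SE; adjusted p = 5.22e-05, edgeR) and 3.42-fold in Cxcr4 KO (log2 -1.78 ± 0.30, SE; adjusted p = 0.000143, edgeR). Klf4, Klf9 and Klf11 kept their calls in both genotypes under every alternative run.

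Klf10, a gene first found as inducible by TGF-beta, was the 1 member with a positive change in both genotypes. It was at 96.1, 94.9, 86.9 and 95.5 CPM in quiescent WT and at 193 and 129.6 CPM in activated WT libraries. In Cxcr4 KO it was at 123, 76.0, 97.4 and 53.5 CPM and then at 108 and 96.5 CPM. Both activated WT libraries were above the quiescent WT ones, as for 17.6% of all genes tested, whereas the Cxcr4 KO states overlapped. The WT change passed the adjusted p but stayed under 2-fold (1.73-fold, log2 0.79 ± 0.28, SE; adjusted p = 0.0381, edgeR), and the Cxcr4 KO change did not pass (log2 0.23 ± 0.28, SE; adjusted p = 0.533, edgeR). The WT value rested on single libraries. Without activated WT replicate 1 it was 0.55 (adjusted p = 0.378, edgeR), without activated WT replicate 2 it was 1.10 and met the rule for a call (adjusted p = 0.0255, edgeR), and without any 1 quiescent WT library the adjusted p was 0.0511 to 0.0729 (edgeR). Klf13, known from T lymphocytes, was at 125 to 177 CPM in quiescent and 131 and 89.3 CPM in activated WT libraries, with a log2 change of -0.42 ± 0.25 (SE; adjusted p = 0.207, edgeR). Its Cxcr4 KO levels were 109 to 138 CPM and then 81.2 and 107 CPM (log2 -0.39 ± 0.25, SE; adjusted p = 0.223, edgeR).

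Klf3, which represses through CtBP, was at 37.0 to 60.9 CPM in quiescent WT and 35.8 and 18.4 CPM in activated WT libraries. Cxcr4 KO libraries were at 46.6 to 79.4 CPM and then 23.1 and 36.7 CPM. The states did not overlap in either genotype, but the WT change missed the threshold (log2 -0.87 ± 0.33, SE; adjusted p = 0.0549, edgeR) and the Cxcr4 KO change stayed under 2-fold (log2 -0.95 ± 0.33, SE; adjusted p = 0.0329, edgeR). Counted without regard to a test, 6 members in WT and 9 in Cxcr4 KO had every activated library below every quiescent one, as did 38.4% and 36.1% of all genes tested. Whether reads were counted by strand was not given in the sources used here, and the exons of Klf3 and Klf7 overlap annotated noncoding genes on the opposite strand.

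**Figure D2:**
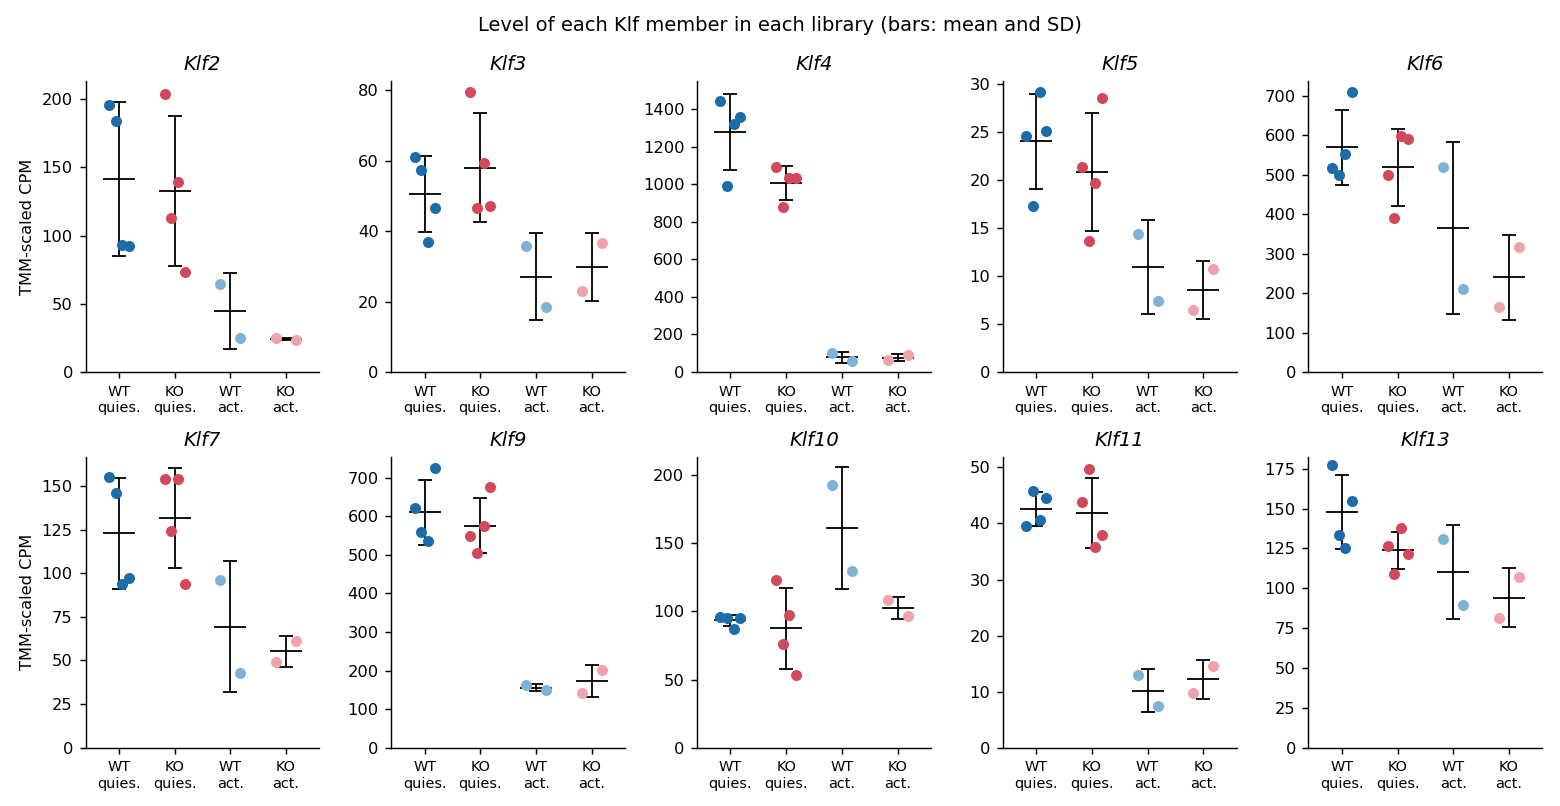
CPM of each Klf member (vertical axes, linear from 0, 1 panel per gene) in WT and Cxcr4 KO (KO) quiescent and activated libraries (horizontal axis). Points are libraries, and bars are the group mean and SD. Klf2, Klf3, Klf4, Klf5, Klf9 and Klf11 have every activated library below every quiescent one in both genotypes. Of all genes tested, 38.4% do so in WT and 36.1% in Cxcr4 KO. The first activated WT library is the higher of its pair for all 10 members.

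**Figure D3:**
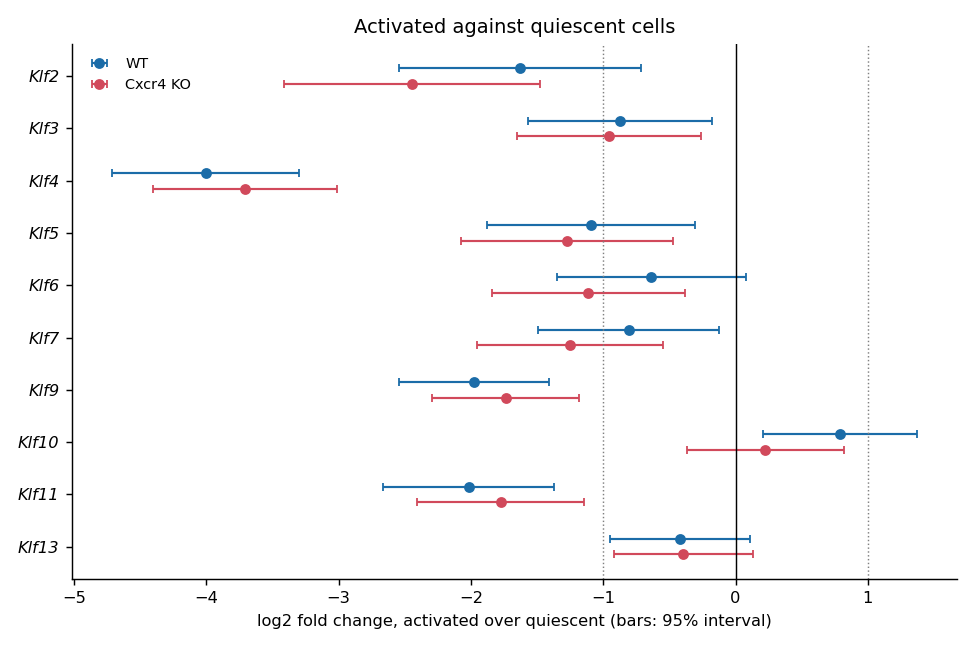
Log2 fold change of activated over quiescent cells (horizontal axis) for each member in WT (blue) and Cxcr4 KO (red). Bars are 95% intervals from the edgeR fit, and dotted lines mark 2-fold changes. The changes run from -4.01 for Klf4 to 0.79 for Klf10 in WT, and the intervals of the 2 genotypes overlap for every member.

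Other lists of transcripts were compared between the states by the same rule. Of all genes tested, 15.7% were called lower and 9.59% higher in WT, and 17.4% and 11% in Cxcr4 KO. All 8 immediate early genes of the list were called lower in both genotypes, among them Nr4a1 (log2 -4.69 in WT and -5.17 in Cxcr4 KO), Fos (-6.27 and -7.41) and Fosb (-6.57 and -7.60). Their summed level was 24617 to 40349.6 CPM in the quiescent libraries and 1398 to 3153 CPM in the activated ones. Markers of endothelium, a cell type in which Klf2 and Klf4 are abundant, summed to 345 to 1542 CPM in quiescent and 118 to 811 CPM in activated libraries. Of these 10 markers, 4 were called lower in WT and 3 in Cxcr4 KO, and none was at 0 in either state. Among genes at least as abundant as the least abundant member, 25.7% were called lower in WT and 27% in Cxcr4 KO. The 3 of 10 in Cxcr4 KO were near that share, and nothing about endothelial transcripts is read from these counts. Smooth muscle and pericyte markers were called lower for 6 of 7 genes in both genotypes, with sums of 1442 to 2642 CPM in quiescent and 182 to 344 CPM in activated libraries. Markers of fibroadipogenic cells summed to 817 to 3830 CPM and 352 to 800.5 CPM, and those of blood cells to 89.9 to 379.9 CPM and 41.2 to 67.1 CPM. All 7 markers of muscle fibres were called higher in both genotypes, and of the 10 satellite cell markers 8 were called lower in WT and 9 in Cxcr4 KO. The part of the immediate early transcripts and of these other cell types in the members' changes was not tested.

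The counts called among genes around the family stand beside 9.59% of all genes tested called higher and 15.7% called lower in WT, and 11% and 17.4% in Cxcr4 KO. Among the genes at least as abundant as the least abundant member, 25.7% were called lower in WT and 27% in Cxcr4 KO. Of 6 glucocorticoid targets, 4 were called lower in each genotype, including Per1 (log2 -2.87 in WT and -3.50 in Cxcr4 KO), Zbtb16 (-3.20 and -2.49) and Sgk1 (-3.22 and -3.89). The other 2, Fkbp5 and Tsc22d3, were not called in either genotype. In Cxcr4 KO both had positive changes, the larger at log2 0.997, and 1 of them passed the adjusted p without reaching 2-fold. The glucocorticoid receptor Nr3c1 was not called in WT (0.30 ± 0.23, SE; adjusted p = 0.308, edgeR). Of 14 upstream regulators, 1 was called higher in WT, the transcription factor Mef2c (2.81 in WT and 3.02 in Cxcr4 KO), and 2 were called lower, Srf (-1.36 and -1.38) and the TGF-beta receptor Tgfbr1 (-1.35 in WT). The kinase pair Map2k5 and Mapk7 above Mef2 was not called in either genotype. In Cxcr4 KO, 1 upstream regulator was called higher and 4 lower. The upstream counts were near the shares of all genes in WT, and nothing is read from them about the pathway.

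The remaining lists are read against the same shares of all genes (9.59% higher and 15.7% lower in WT, 11% and 17.4% in Cxcr4 KO). Of 12 cofactors and ubiquitin ligases, 2 were called higher and 5 lower in WT. The highest ranked by p were Wwp1, a ubiquitin ligase that acts on Klf proteins (log2 2.11 in WT and 1.89 in Cxcr4 KO), the acetyltransferase Kat2b (-1.34 in WT) and the deacetylase Hdac1 (-1.25 and -1.40). In Cxcr4 KO, 2 cofactors were called higher and 3 lower. Of 12 reported Klf targets, 3 were called higher in WT, the growth factor Pdgfa (2.81 and 2.90), muscle creatine kinase Ckm, also 1 of the fibre markers (4.15 and 4.09), and the matrix protein Npnt (2.16 in WT), and 1 was called lower. In Cxcr4 KO 2 targets were higher and 3 lower. The remaining 7 Klf genes of the list held 1 gene called lower in WT, Klf12, a CtBP-recruiting repressor (-1.54 and -1.93), and 2 in Cxcr4 KO. Of the related Sp factors, Sp4 (-2.43 and -1.67) and Sp2 (-1.12 in WT) were called lower among 8 tested in WT, and 1 in Cxcr4 KO. The 1 of 7 other Klf genes and the 1 of 12 targets called lower in WT were at or below the share of all genes. In WT the lists had median log2 changes of -2.77 for the glucocorticoid targets, -0.46 for the upstream regulators, -0.13 for the cofactors and 0.14 for the targets, beside -0.92 for all genes tested.

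The second comparison asked whether the members differed between Cxcr4 KO and WT cells of the same state. In quiescent cells none of the 10 members was called and none had an unadjusted p under 0.05 (edgeR), and DESeq2 called none either. Of all genes tested, 0.0155% were called and 1.74% had an unadjusted p under 0.05. All 10 members overlapped between the genotypes. The log2 differences of Cxcr4 KO minus WT ran from -0.34 for Klf4 to 0.20 for Klf3. The 95% interval for Klf4 was -0.80 to 0.12 (unadjusted p = 0.137, edgeR), with 3 of the 4 WT libraries above every Cxcr4 KO library and the remaining one at 988 CPM. Over the 10 members the intervals reached no further than -0.80 and 0.73, so at this depth they leave out 2-fold differences in either direction. None of the lists of pathway genes held a called gene in this comparison.

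In activated cells none of the 10 members was called and none had an unadjusted p under 0.05 (edgeR), and DESeq2 called none. Of all genes tested, 0.0504% were called and 8.37% had an unadjusted p under 0.05. Klf2 was lower in both Cxcr4 KO libraries (24.9 and 23.7 CPM) than in both WT libraries (64.7 and 25.0 CPM), though the nearest pair differed little. Its log2 difference was -0.91 with an interval of -1.92 to 0.11 (unadjusted p = 0.0768, edgeR). Klf10 was also lower without overlap (108 and 96.5 against 193 and 129.6 CPM), with a log2 difference of -0.66 and an interval of -1.35 to 0.04 (unadjusted p = 0.0618, edgeR). The other 8 members overlapped, and 9.5% of all genes tested were lower in Cxcr4 KO without overlap. Each difference rested on which activated WT library was kept. Without replicate 1 it was -0.13 for Klf2 and -0.43 for Klf10, and without replicate 2 it was -1.49 and -0.99, with no adjusted p under the threshold in either case (edgeR). Replicate 2 had the lowest endothelial sum of the 4 activated libraries (118 CPM) and the largest share of the ribosomal RNA gene (40.3%). Replicate 1 had the highest endothelial sum (811 CPM) and the highest immediate early sum (3153 CPM). With 2 libraries per genotype the intervals reached from -1.92 to 0.93 over the 10 members, so differences of 2-fold were within them for several.

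The change with culture did not differ detectably between the genotypes. No member and no other gene passed the interaction test (0% called, edgeR), and no member had an unadjusted p under 0.05, against 6.59% of all genes tested. DESeq2 on all libraries called 45 genes, none of them a member. The interaction was largest for Klf2 (log2 -0.81, interval -2.03 to 0.40, unadjusted p = 0.178, edgeR) and Klf10 (-0.57, interval -1.41 to 0.28, unadjusted p = 0.178, edgeR). For Klf4 it was 0.30 with an interval of -0.51 to 1.11, for Klf9 0.24 with -0.49 to 0.96, and for Klf11 0.24 with -0.60 to 1.09.

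**Figure D4:**
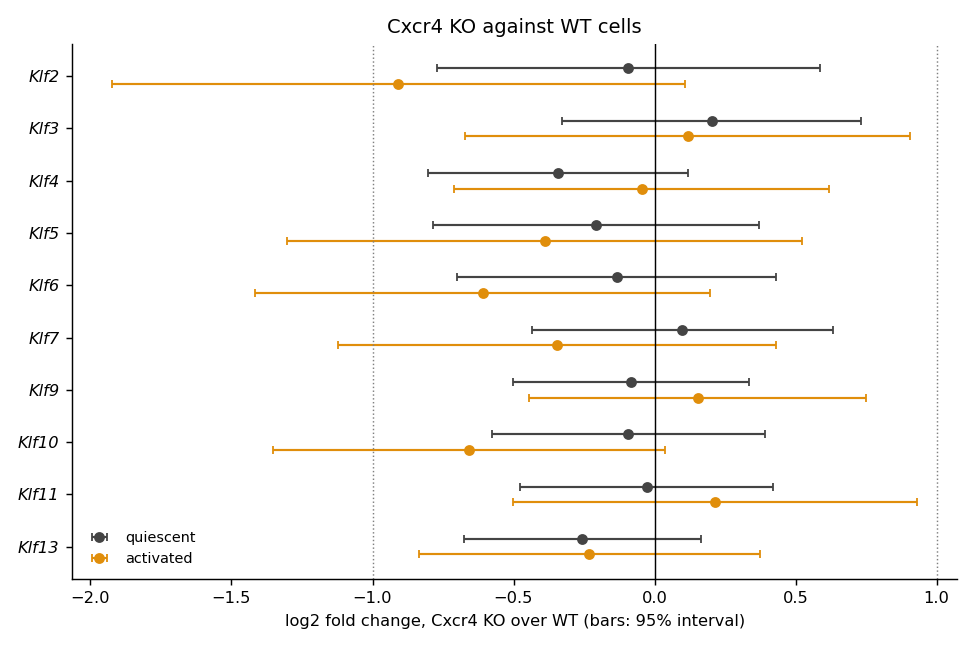
Log2 fold change of Cxcr4 KO over WT cells (horizontal axis) for each member in quiescent (grey) and activated (orange) cells. Bars are 95% intervals from the edgeR fit, and dotted lines mark 2-fold changes. All intervals include 0, and those of activated cells, with 2 libraries per genotype, are wider.

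Members varied unequally between the libraries of a group. Among quiescent WT libraries the coefficient of variation was 4.64% for Klf10 and 7.09% for Klf11 at the low end, and 39.9% for Klf2 at the high end. In quiescent Cxcr4 KO libraries it was 8.97% for Klf4, 34.0% for Klf10 and 41.5% for Klf2. Across the 8 quiescent libraries, 45 pairs of members were correlated on log2 CPM. No pair passed after Benjamini-Hochberg adjustment over the 45 (exact permutation tests, two-sided), 8 had an unadjusted p under 0.05, and 25 coefficients were positive with a median of 0.14. The strongest was Klf2 with Klf7 (r = 0.93, exact permutation p = 0.00377, adjusted p = 0.117; rho = 0.88, exact permutation p = 0.00724, adjusted p = 0.163). It was 0.96 after centring on each genotype and 0.91 without the 2 libraries farthest from the median of Klf2. Klf3 with Klf7 gave r = 0.84 and rho = 0.88, Klf2 with Klf3 r = 0.82 and rho = 0.76, and Klf6 with Klf9 r = 0.81 and rho = 0.76 (adjusted p = 0.117 for each r, exact permutation). The last fell to 0.43 without the 2 libraries farthest from the median of Klf6. These values share the libraries and their normalisation.

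The quiescent libraries also differed in markers of other cell types, and some members varied with them. These relations were examined after the values were seen, among 70 pairings of a member with a list sum. Klf2 ran with the endothelial sum with r = 0.93 and rho = 0.83 (exact permutation p = 0.00303 and 0.0154, adjusted p = 0.0706 and 0.504), and r was 0.93 without the 2 farthest libraries. Klf7 gave r = 0.89 and rho = 0.71 (adjusted p = 0.14 and 0.504, exact permutation). Klf4 gave only r = 0.11 and rho = 0.17 (adjusted p = 0.972 and 0.98, exact permutation). Klf10 gave r = 0.86 and rho = 0.86 (adjusted p = 0.0174 and 0.504, exact permutation), the only one of the 70 to pass by r, and by rho none passed. Its r fell to 0.58 without the 2 farthest libraries, and quiescent Cxcr4 KO replicate 4 was lowest in both measures (53.5 CPM for Klf10 and 345 CPM for the endothelial sum). The 4 quiescent libraries with the highest endothelial sums had 139 to 204 CPM of Klf2, and the other 4 had 73.1 to 113 CPM. The source of the Klf2 transcripts in these libraries was not tested.

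Other lists gave correlations of like size in the opposite direction. Klf9 ran against the muscle fibre sum with r = -0.91 and rho = -0.81 (adjusted p = 0.0582 and 0.504, exact permutation), and r was -0.74 without the 2 farthest libraries. Against the satellite cell sum, Klf7 gave r = -0.86 and rho = -0.71 (adjusted p = 0.154 and 0.504, exact permutation) and Klf2 gave r = -0.82 and rho = -0.74 (adjusted p = 0.167 and 0.504, exact permutation). Without the 2 farthest libraries these were -0.72 and -0.59. None of these passed, and the list sums of a library are not independent of each other.

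**Figure D5:**
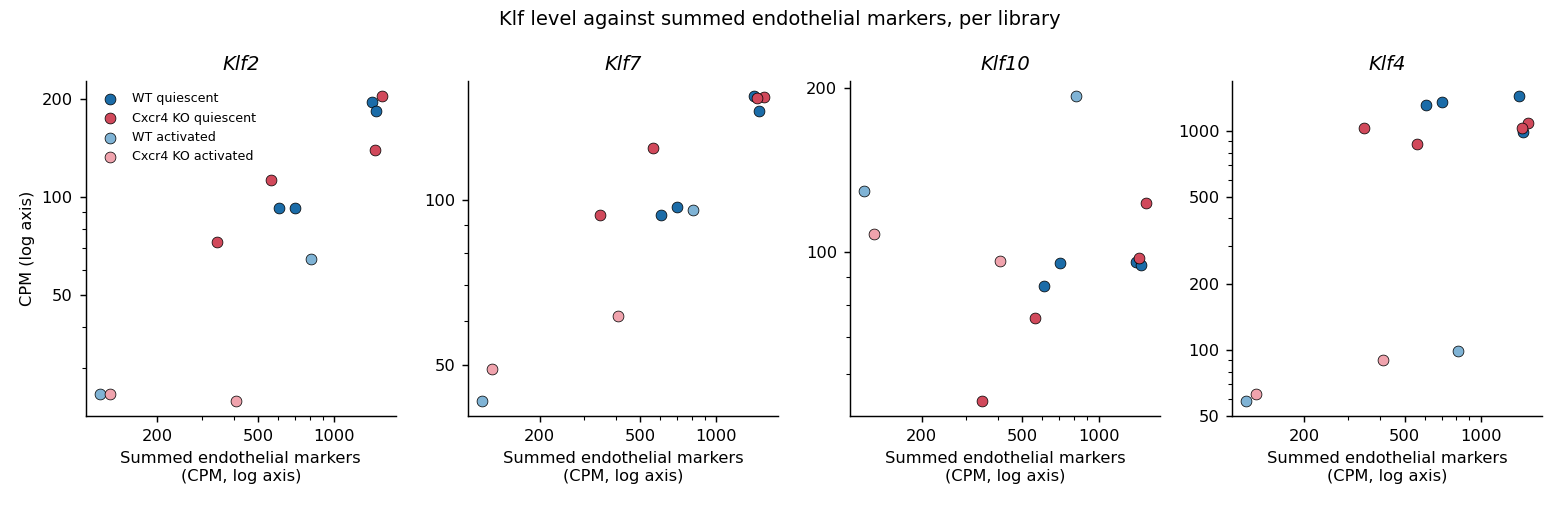
CPM of Klf2, Klf7, Klf10 and Klf4 (vertical axes, log scale) against the summed CPM of 10 endothelial markers (horizontal axis, log scale). Each point is a library, coloured by group. Among the 8 quiescent libraries r with the markers is 0.93 for Klf2 (adjusted p = 0.0706, exact permutation) and 0.11 for Klf4 (adjusted p = 0.972, exact permutation). The 4 activated libraries lie at 118 to 811 CPM of the markers.

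The genes whose quiescent pattern was most like that of a member were ranked by r over the 8 quiescent libraries among 8531 genes with a mean of at least 10 CPM. For Klf2 they were Kalrn (r = 0.99), Hspa12b (0.98), a chaperone relative known from endothelium, and Nek7 (0.98). Klf4 was followed most closely by the nuclear receptor coactivator Ncoa2 (r = 0.96), Zgpat (0.94) and the acetyltransferase Kat2b (0.93). For Klf6 they were Agap3 (0.98), the diacylglycerol kinase Dgkh (0.97) and Zdhhc7 (0.97). For Klf9 they were the prostaglandin receptor Ptger4 (0.97), Extl3 (0.96) and 6430548M08Rik (0.95). These are the highest of many coefficients over 8 libraries and are given as a description.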

How the data were processed

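RNA-seq libraries of sorted satellite cells (12 libraries, 4 groups from the labels) were analysed from 2 tables. Per the study's methods, the authors trimmed paired reads with Trim Galore 0.6.0, aligned them with STAR 2.7.2a to GRCm38.p6 and deposited raw counts per gene (GENCODE annotation), together with FPKM values averaged per group, which the authors deposited without replicates. Multi-mapping and strand settings were not given in the sources used here.

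Counts were fitted once over the 12 libraries with edgeR 4.0.16 (TMM, quasi-likelihood, filterByExpr, a mean per group), and p-values were Benjamini-Hochberg adjusted over the 25771 genes tested. SEs are the log2 change over the root of F. TMM-scaled CPM are printed, and their logarithms add a prior count of 2. Exon lengths came from GENCODE M21, in which 99.5% of the gene IDs matched, and promoters from RefSeq on GRCm38.p6. DESeq2 1.42.0 and the other alternatives are given in the closing section. No value column was left unmapped (0). The members and lists were chosen with earlier results of these data known. Of each list at most 3 genes, the smallest p among those called in WT with culture, were named with their values. Nr3c1, Map2k5, Mapk7, Fkbp5 and Tsc22d3 were named after their values were seen. On simulated data with 200 changed genes of 25771, 79% of 4-fold and 99% of 8-fold changes were recovered for the WT culture comparison, with 3 false calls, and 68% and 91% for the activated genotype comparison, with 2.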

Additional observations from a re-analysis of the deposited data

Results flagged for a closer look

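Of the 20 sets of 4 quiescent libraries (10 members in 2 genotypes), 1 held a library far from the others by Dixon's test at the 95% level. This was Klf10 in quiescent WT replicate 3, at 86.9 CPM against 94.9 to 96.1 CPM in the other 3, a gap of 0.878 of the range. Chance gives about 1 such set in 20.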

How the results depend on the processing

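The calls of members with culture ranged from 5 to 6 of 10 in WT and from 6 to 8 in Cxcr4 KO over the alternatives that kept all libraries. Over the same alternatives, all genes called in either direction ranged from 4849 to 7674 in WT and from 5135 to 8693 in Cxcr4 KO. The member calls varied more widely in both genotypes when a library was left out. No member was called between genotypes or in the interaction under any alternative. Activated cells had 2 libraries per genotype and a depth several times lower than quiescent cells. Genotype differences in activated cells could therefore be missed, including some of 2-fold or more. On simulated data, 68% of 4-fold changes were recovered for this comparison. Thinning every library to 1892996 counts, chosen after seeing the data, left 5 members called in WT and 8 in Cxcr4 KO.

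Over all genes, the count called between genotypes in activated cells was 13 and became 8 with DESeq2 size factors, 325 without a filter, 2 with a mean count of at least 10, 20 with a robust fit, 145 with DESeq2 on all libraries, 29 with DESeq2 and 3 with edgeR on the compared groups, 23 with the replicate block and 6 after thinning. In quiescent cells it was 4 and became 46 without a filter. In the interaction it was 0 and became 170 without a filter, 8 with a robust fit, 45 with DESeq2, 1 without the ribosomal RNA gene, 6 with the replicate block and 1 after thinning. Leaving out 1 library gave 0 to 209 (activated; 209 without activated WT replicate 2), 3 to 7 (quiescent) and 0 to 82 (interaction). The cause was not tested. The count of correlated pairs was 0 and became 1 after centring on each genotype (Klf2 with Klf7) and 2 with DESeq2 size factors (also Klf3 with Klf7).

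Same-numbered quiescent libraries of the 2 genotypes correlated by 0.05, 0.122, -0.05 and 0.296 in their deviations. Differently numbered ones correlated by -0.208 to 0.0753, so a pairing by number was neither shown nor excluded. The activated value (-0.0236) cannot decide this, because the deviations of 2 libraries from their mean mirror each other. With the replicate block, Klf3 (log2 -1.07) and Klf7 (-1.04) passed in WT and Klf5 (-0.91) did not. In Cxcr4 KO, Klf3 (-1.08) passed and Klf5 (-0.97) and Klf6 (-0.88) did not. The block turned the Klf4 genotype difference in activated cells to 0.0133, and thinning turned that of Klf11 in quiescent cells to 0.30 and of Klf3 in activated cells to -0.0022.

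Signs of genotype differences that were not called also turned when a library was left out. In quiescent cells the ranges were -0.38 to 0.11 for Klf2, -0.0117 to 0.23 for Klf7, -0.17 to 0.0079 for Klf9, -0.30 to 0.0832 for Klf10 and -0.12 to 0.0407 for Klf11. In activated cells they were -0.34 to 0.60 for Klf3, -0.45 to 0.29 for Klf4, -0.87 to 0.11 for Klf5, -1.21 to 0.0799 for Klf6, -0.88 to 0.27 for Klf7, -0.17 to 0.36 for Klf9 and -0.16 to 0.61 for Klf11.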
